A study of Mus musculus with 2 samples.

Results

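The platelet-derived growth factor (PDGF) family was followed in the newborn mouse skull through its 4 ligand genes, Pdgfa, Pdgfb, Pdgfc and Pdgfd, and its 2 receptor genes, Pdgfra and Pdgfrb. These 6 genes were chosen by name among 23930 amplicon targets, and each had 1 target. The tissue was cranial suture, the fibrous joint between the skull bones, with coronal, sagittal and lambdoid sutures of wildtype pups taken at postnatal day 3. RNA was profiled in 2 libraries, numbered 1 and 2 as in their titles, which form 1 group with no treated or mutant arm. Both libraries were entered here as 1 batch, though their titles name no batch. The labels give no strain and do not say whether pups were pooled or separate, so the spread between the libraries may be partly technical. They name suture stem cells as the cell type, while the extraction text describes whole tissue with no sort. Markers of skeletal muscle, cartilage, vessels, blood cells and neurons were read in both libraries, and the libraries are treated here as bulk tissue. They stood apart in several of these, with skeletal muscle markers at sums of 39216 and 11878 CPM (library 1, then library 2, as in all such pairs) and olfactory neuron markers at sums of 94.8 and 506 CPM. CPM gives the reads of a target after the authors scaled each library to the same total.

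PDGF ligands are secreted as dimers that bind receptor tyrosine kinases on neighbouring cells and drive their division, migration and survival. PDGF-A and PDGF-C act mainly through the alpha receptor, a marker of mesenchymal progenitors and of cranial neural crest mesenchyme. PDGF-B acts through both receptors and PDGF-D mainly through the beta receptor, which marks pericytes and other perivascular cells. In blood vessels, endothelial PDGF-B recruits pericytes, and in bone, PDGF-B from osteoclast precursors is known to act on vessels and skeletal progenitors.

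In the GENCODE M21 annotation, whose GRCm38 coordinates are those of mm10, the receptors are genes of many exons and the ligands of few. Pdgfra lies on chromosome 5 from 75152292 to 75198215 and has 23 exons in its longest coding transcript, against 24 for Pdgfrb. Those transcripts code for 1089 and 1103 residues. Pdgfa lies on chromosome 5 from 138976014 to 138997370, and Pdgfb on chromosome 15 from 79995874 to 80014977. They span 21.4 and 19.1 kb and code for 211 and 241 residues. Pdgfc, on chromosome 3 from 81036416 to 81214040, and Pdgfd, on chromosome 9 from 6168584 to 6378850, carry an extra CUB domain that must be cut off before they can bind a receptor. They span 178 and 210 kb and code for 345 and 370 residues. Other annotated genes, most of them on the opposite strand, overlap each member except Pdgfrb. No source used here gives the place of each amplicon or the use of strand in counting, so reads of such overlapping genes could not be told apart.

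RefSeq promoter entries (GRCm38.p6) matched Pdgfa, Pdgfc, Pdgfd and Pdgfra and none matched Pdgfb or Pdgfrb. The 250 bases before the start are shown because they let the control regions of members that were all expressed in 1 tissue be compared. They read 5′ to 3′ on the gene's strand, with capitals for any of 3 motifs searched on both strands. The motifs were the GC box (GGGCGG), the letters TATAAA and the CArG box, the known site of serum response factor, a transcription factor activated by growth factor signals. For Pdgfa, which has 2 entries, the one near an annotated GENCODE start is given. The Pdgfd entry has no GENCODE start within 50 bases of its own start. They lie at chr5:138994945-138995194 (minus strand), chr3:81036166-81036415, chr9:6168236-6168485 and chr5:75152001-75152250 (plus strand).
Pdgfa: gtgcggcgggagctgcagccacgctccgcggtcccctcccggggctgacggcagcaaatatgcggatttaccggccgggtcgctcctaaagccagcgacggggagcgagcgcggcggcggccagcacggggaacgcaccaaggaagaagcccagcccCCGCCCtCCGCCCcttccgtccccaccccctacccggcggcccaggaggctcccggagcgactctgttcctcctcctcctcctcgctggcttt
Pdgfc: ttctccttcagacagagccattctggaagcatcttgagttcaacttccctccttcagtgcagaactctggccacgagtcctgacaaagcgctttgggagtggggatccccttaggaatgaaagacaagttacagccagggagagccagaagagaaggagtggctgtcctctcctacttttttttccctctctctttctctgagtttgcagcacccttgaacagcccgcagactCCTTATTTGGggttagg
Pdgfd: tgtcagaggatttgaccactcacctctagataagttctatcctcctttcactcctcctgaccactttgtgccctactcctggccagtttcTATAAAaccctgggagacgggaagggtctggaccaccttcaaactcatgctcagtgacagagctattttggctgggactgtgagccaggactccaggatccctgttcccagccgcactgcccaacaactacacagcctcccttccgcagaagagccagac
Pdgfra: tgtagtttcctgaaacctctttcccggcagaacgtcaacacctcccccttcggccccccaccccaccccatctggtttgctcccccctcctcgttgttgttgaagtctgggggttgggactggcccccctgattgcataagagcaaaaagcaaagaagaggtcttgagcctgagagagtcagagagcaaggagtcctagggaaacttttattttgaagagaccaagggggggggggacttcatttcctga
The Pdgfa stretch held 2 GC boxes and had the highest GC content at 72.4%, against a median of 52.4% over 32851 promoters. Pdgfc, Pdgfd and Pdgfra stood at 50.8%, 53.6% and 54.4%. The Pdgfc stretch held 1 CArG box, Pdgfd held TATAAA once, and Pdgfra held none of these letters. No motifs overlapped, and the GC boxes of Pdgfa read on the opposite strand. Among all promoters, 32.7% held a GC box, 12.4% held TATAAA and 1.47% held a CArG box. These matches describe letters in a window and do not show that a factor binds there.

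All 6 members were read well above the detection level of 1 CPM in both libraries, and all 6 also exceeded 10 CPM. Of all targets, 55.0% reached 1 CPM and 34.6% reached 10 CPM in both libraries. Library 1 held 5663344 reads and library 2 held 15802610, so each member rested on 118 to 3697 reads. Longer genes gain no reads on such a panel, where every gene is read from a single amplicon, but amplicons differ in efficiency. The order of members is therefore an order of reads per amplicon and need not be the order of transcript numbers. In bulk tissue, fewer cells of a type and less RNA per cell cannot be told apart.

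Pdgfrb, the beta receptor (chromosome 18, 61045150 to 61085061), was the highest member in both libraries. It was read at 181 CPM in library 1 (exact 95% Poisson interval 170 to 192) and at 234 CPM in library 2 (226 to 242), giving 207 CPM ± 37.6 (SD, n = 2). It exceeded 96.8% of all targets in library 1 and 97.8% in library 2, and its lower library stood above the higher library of every other member. Pdgfra, the alpha receptor, was read at 47.0 CPM in library 1 (interval 41.5 to 53.0) and 83.8 CPM in library 2 (79.3 to 88.4). Its mean of 65.4 CPM ± 26.0 (SD, n = 2) was close to that of the highest ligand, but its libraries lay far apart. The Poisson intervals cover counting error only, as the reads carry no molecular identifiers.

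Pdgfa, the ligand of the alpha receptor, led the ligands at 66.2 CPM in library 1 and 62.9 CPM in library 2, or 64.6 CPM ± 2.34 (SD, n = 2). Pdgfb, which binds both receptors, was read at 38.8 CPM in library 1 and 28.4 CPM in library 2, or 33.6 CPM ± 7.42 (SD, n = 2). Both libraries thus placed Pdgfa above Pdgfb, without overlap. Pdgfc, the second ligand of the alpha receptor, stood at 27.7 CPM in library 1 and 31.5 CPM in library 2, or 29.6 CPM ± 2.64 (SD, n = 2). Pdgfd, which acts mainly through the beta receptor, was the lowest member at 20.8 and 23.8 CPM, or 22.3 CPM ± 2.09 (SD, n = 2). By mean CPM the order was Pdgfrb, Pdgfra, Pdgfa, Pdgfb, Pdgfc and Pdgfd. The neighbours Pdgfra and Pdgfa changed places between the libraries, as did Pdgfb and Pdgfc, and these pairs were not resolved. The other neighbours kept their order with ranges that did not overlap, although the lower library of Pdgfc, at 27.7 CPM, stood close to the higher library of Pdgfd, at 23.8 CPM.

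**Figure D1:**
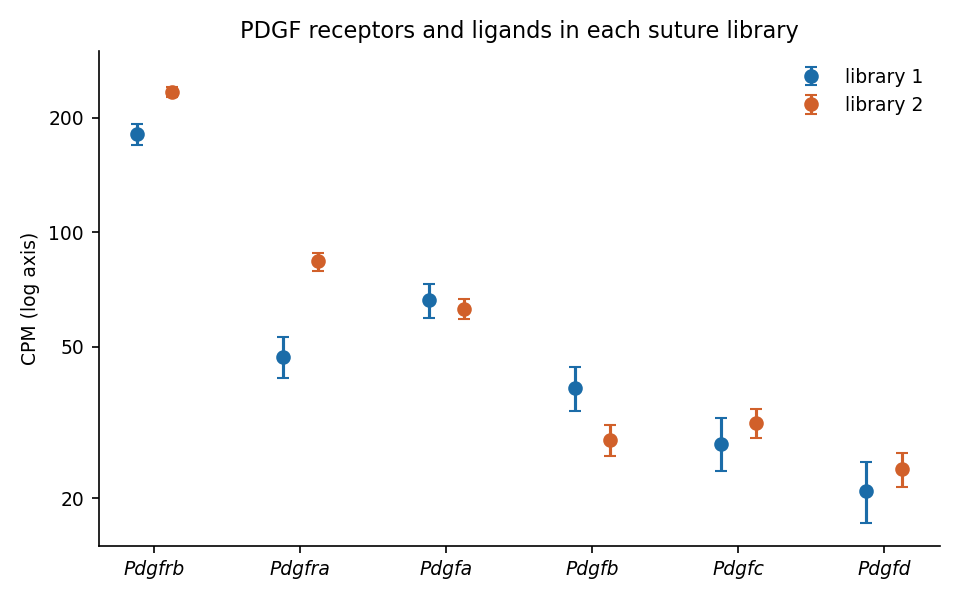
Level of each PDGF gene in CPM (log axis) in library 1 and library 2, ordered by mean, with exact 95% Poisson intervals of the reads as bars. Pdgfrb stood highest at 181 and 234 CPM, Pdgfra spread from 47.0 to 83.8 CPM, and Pdgfa, Pdgfc and Pdgfd lay close in both libraries.

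An exact binomial test, two-sided and run on the reads of every target, compared the libraries, with Benjamini-Hochberg adjustment over all 23930 targets. It compares 2 libraries of 1 group and covers counting error only, not conditions. It called 3 of the 6 members, 2 higher in library 2 and 1 higher in library 1. Of all targets it called 37.0%. Of the 9192 targets averaging at least 10 CPM it called 69.5%, with 37.0% higher in library 2 and 32.5% higher in library 1. The members' share was below that of other targets of such levels, so the calls do not set the family apart. Pdgfra was 1.78-fold higher in library 2 (interval 1.56 to 2.04, exact binomial test, adjusted p = 1.06e-18). Pdgfrb was 1.29-fold higher in library 2 (interval 1.21 to 1.39, same exact test, adjusted p = 9.10e-13). Both receptors thus stood higher in the deeper library, while the called ligand went the other way. Pdgfb was 1.37-fold higher in library 1 (interval 1.16 to 1.61) by the exact binomial test, at an adjusted p = 0.000738. With library 2 thinned to the depth of library 1, the log2 differences were 0.88 for Pdgfra, 0.35 for Pdgfrb and -0.44 for Pdgfb, and each was still called.

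The other ligands did not pass the test. Pdgfa had a ratio of library 1 to library 2 of 1.05 (interval 0.932 to 1.19, adjusted p = 0.671, exact binomial test). The ratio of library 2 to library 1 was 1.13 for Pdgfc (interval 0.946 to 1.37, adjusted p = 0.361, exact binomial test). For Pdgfd that ratio was 1.14 (interval 0.926 to 1.42, adjusted p = 0.418, exact binomial test). These intervals leave room for differences of up to 1.42-fold.

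On the log2(CPM + 1) scale, which understates differences of low targets, Pdgfra differed by 0.82 between library 2 and library 1. Of the targets averaging at least 10 CPM, 76.8% differed by less than this in size. Pdgfb differed by -0.44, more than 48.9% of those targets, and Pdgfrb by 0.37, more than 41.6%. Pdgfc and Pdgfd differed by 0.18 each and Pdgfa by -0.07. The median size of difference among these targets was 0.45, so Pdgfra was the member that exceeded it.

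**Figure D2:**
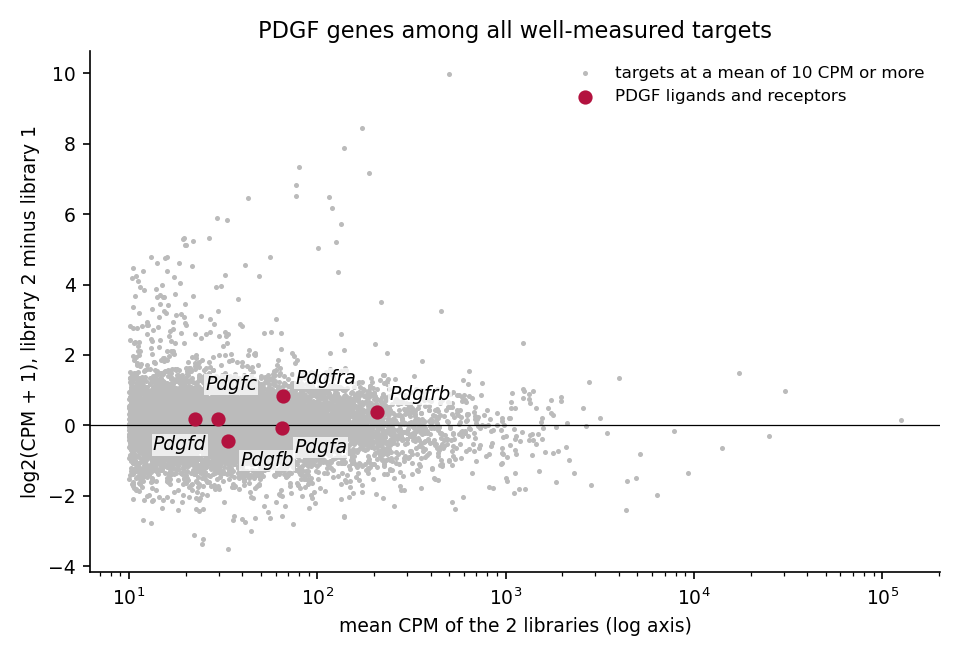
Difference between the libraries in log2(CPM + 1), library 2 minus library 1, against mean CPM (log axis) for the 9192 targets averaging at least 10 CPM (grey) and the 6 PDGF genes (red). Pdgfra lay highest of the members at 0.82 and Pdgfb lowest at -0.44, all inside the cloud of other targets.

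Ratios of 2 members within a library do not depend on how libraries were scaled, and the change of a ratio between libraries does not depend on amplicon efficiency. Pdgfra gave 0.260 reads per Pdgfrb read in library 1 (exact 95% interval 0.226 to 0.298) and 0.358 in library 2 (0.336 to 0.381). The balance of the receptors thus shifted toward Pdgfra in library 2 by 1.38-fold (interval 1.19 to 1.61). The ligand ratio of Pdgfa to Pdgfb was 1.70 in library 1 and 2.22 in library 2, a shift of 1.30-fold (interval 1.06 to 1.60). The ratio of the CUB-domain ligands Pdgfc and Pdgfd was 1.33 in library 1 and 1.32 in library 2. Its interval of change, 0.748 to 1.32, included 1 but overlapped that of Pdgfa to Pdgfb, and the shifts of these pairs were not compared. The intervals of ratios cover counting error only, and ratios of other targets were not measured beside them. Among single targets averaging at least 10 CPM, the log2 difference between libraries had quartiles of -0.41 and 0.50. A change of ratio joins 2 such differences, so these quartiles are no direct reference for it. Whether the shifts here and in the next paragraph set these genes apart was not tested.

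Ligands were then set against the receptors they use. Reads of Pdgfa outnumbered those of Pdgfra in library 1 at a ratio of 1.41 (interval 1.20 to 1.66), and fell behind them in library 2 at 0.751 (0.691 to 0.816). The ratio was therefore 1.88-fold higher in library 1 (interval 1.57 to 2.25). Pdgfb to Pdgfrb went from 0.215 in library 1 to 0.121 in library 2, a ratio 1.77-fold higher in library 1 (interval 1.48 to 2.12). For Pdgfc to Pdgfra the ratios were 0.590 and 0.375, 1.57-fold higher in library 1 (interval 1.25 to 1.97). Pdgfd to Pdgfrb, at 0.115 and 0.102, had an interval of change from 0.707 to 1.11 that included 1. The summed ligands reached 154 CPM in library 1 and 146 CPM in library 2, and the summed receptors 228 and 318 CPM. Ligand reads per receptor read were thus 0.674 in library 1 and 0.461 in library 2. Ratios that hold Pdgfra, among them that of the sums, share its difference between the libraries and are not separate results.

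Within the ligands, Pdgfa took 43.1% of the reads in library 1 (exact Clopper-Pearson interval 39.8 to 46.5%) and 42.9% in library 2 (40.9 to 45.0%). The share of Pdgfb was 25.3% in library 1 (22.4 to 28.3%) and 19.4% in library 2 (17.8 to 21.0%). These are shares of reads over 4 amplicons, and they too restate the differences of the single ligands.

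**Figure D3:**
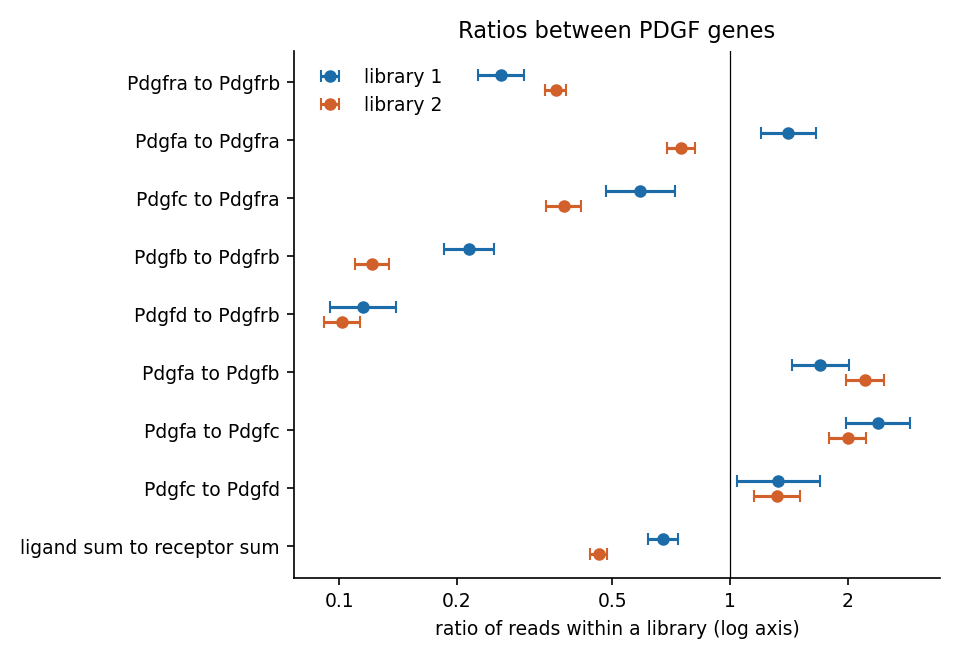
Ratio of reads of the first to the second gene within library 1 and library 2 (log axis), with exact 95% intervals as bars. Pdgfa to Pdgfra lay on opposite sides of 1 at 1.41 and 0.751, while Pdgfc to Pdgfd stayed at 1.33 and 1.32.

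Genes that release, bind or assist PDGF were present, with 10 of 11 at 1 CPM or more in both libraries. In the test over all targets, 6 of these 11 were higher in library 2, 2 in library 1 and 3 were not called. The share called was 72.7%, beside 37.0% of all targets and 69.5% of those averaging at least 10 CPM. The counts of the lists below stand beside the same shares. Furin, a protease that cuts the propeptides of PDGF-A and PDGF-B, was read at 44.3 CPM in library 1 and 189 CPM in library 2 (adjusted p = 2.73e-159, exact binomial test). Its relatives Pcsk5 and Pcsk7 lay at 23.5 and 22.8 CPM and at 45.4 and 44.8 CPM and were not called. Pcsk6, another proprotein convertase, was higher in library 2 at 364 CPM against 279 CPM in library 1. Plat, the tissue plasminogen activator that removes the CUB domain of PDGF-C, was read at 46.1 and 55.4 CPM (adjusted p = 0.0254, exact binomial test).

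For PDGF-D, the activating proteases known are urokinase and matriptase. Plau, which codes for urokinase, was higher in library 1 at 26.0 CPM against 13.3 CPM in library 2 (adjusted p = 9.61e-09, exact binomial test). St14, which codes for the epithelial protease matriptase, was read at 1.24 CPM in library 1 and 28.1 CPM in library 2 (adjusted p = 3.62e-47, exact binomial test). The libraries also differed in olfactory neuron markers, all 6 of which were higher in library 2, with the sums given above. Their part in the St14 and Furin differences was not tested.

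Among co-receptors and binding proteins, Lrp1, a partner of the beta receptor, was read at 329 CPM in library 1 and 954 CPM in library 2 and was called higher in library 2. The co-receptor Nrp1, at 49.3 and 44.3 CPM, was not called. Sparc, a matrix protein that binds PDGF-B, was the highest of the list at 17146 CPM in library 1 and 11030 CPM in library 2, and was called higher in library 1. A2m, a plasma protein that traps PDGF, was the lowest at 0.177 CPM in library 1, from 1 read, and 1.39 CPM in library 2.

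Of 17 adaptors, enzymes and kinases that bind or follow the activated receptors, all reached 1 CPM and 16 reached 10 CPM in both libraries. Of these, 4 were higher in library 1, another 4 in library 2, and 9 were not called. The median difference of this list was -0.0023 on the log2 scale, beside 0.07 for all targets averaging at least 1 CPM and 0.18 for the 6 members. Shc1, an adaptor, averaged 329 CPM, followed by the adaptor Grb2 at 242 CPM and the phosphatase Ptpn11 at 188 CPM. Grb2 was read at 242 CPM in both libraries. Rasa1, a Ras GTPase-activating protein that binds the beta receptor, was the lowest at 4.84 CPM.

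Genes that switch the receptors off were also expressed, with 6 of the 7 measured at 10 CPM or more in both libraries. Of these 7, 4 were higher in library 2, 1 in library 1 and 2 were not called, and the 6 averaging at least 1 CPM had a median difference of 0.49. The ubiquitin ligase gene Cblb led at 102 CPM, followed by the adaptor Sh2b3 at 77.5 CPM and the phosphatase Ptpn1 at 76.5 CPM. Socs3, an inducible inhibitor of cytokine signalling, was the lowest, with no read in library 1, which allows up to 0.530 CPM, and 0.316 CPM in library 2. A further list held 9 immediate early genes known to respond to PDGF in cultured fibroblasts. Of these, 3 were higher in library 2, none in library 1 and 6 were not called. Of the 9, 7 reached 10 CPM in both libraries. At 33.3%, the share called lay below the 37.0% of all targets and the 69.5% of those averaging at least 10 CPM. The list was thus not called more often than other targets. Egr1 led at 165 CPM in library 1 and 291 CPM in library 2, followed by Jun at 78.6 and 76.8 CPM and by Srf, which codes for serum response factor, at 42.7 and 47.2 CPM. Cxcl1, a chemokine first found as a PDGF-induced gene, was the lowest at 0.353 and 0.570 CPM.

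The nearest relatives of the PDGF genes by structure were expressed at mixed levels. The PDGF receptors share their class III fold with Kit, Csf1r and Flt3, which averaged 16.7, 80.9 and 1.22 CPM beside 65.4 CPM for Pdgfra and 207 CPM for Pdgfrb. The ligand Csf1, at 174 CPM, was the highest of that list of 7, of which 2 were higher in each library, with no call for 3. Among the VEGF genes, which share the cystine-knot fold of the PDGFs, Vegfa and Vegfb averaged 70.2 and 46.7 CPM, Vegfc averaged 5.85 CPM and Pgf was the lowest at 0.0635 CPM. Of these 5, 2 were higher in library 2, 1 in library 1 and 2 were not called.

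Markers of the cells known to make or receive PDGF moved in different directions between the libraries. Endothelial markers, of cells that make PDGF-B, were higher in library 1 in 6 of 8 cases, with 2 not called, a median difference of -0.51 and sums of 746 CPM in library 1 and 534 CPM in library 2. Pecam1, an adhesion gene, was read at 286 and 163 CPM, Cdh5, the endothelial cadherin, at 212 and 215 CPM, and Vwf, a clotting factor gene, at 66.4 and 37.0 CPM. Tek, an angiopoietin receptor, was the lowest at 17.7 and 16.1 CPM. Pdgfb, at -0.44, was also higher in library 1. Platelet and megakaryocyte markers, of cells that store PDGF, held 2 of 6 genes higher in library 1, led by Pf4, 1 higher in library 2 and 3 uncalled, with sums of 167 and 91.9 CPM. Of 8 osteoclast markers 2 were higher in each library and 4 had no call, at a median difference of -0.05 and sums of 3395 and 2341 CPM. Mmp9, at 1784 and 1354 CPM, and Acp5, at 1299 and 622 CPM, led this list and were the 2 higher in library 1. Nfatc1, at 237 and 269 CPM, was called higher in library 2, and Calcr was the lowest at 2.12 and 1.20 CPM. The fold of library 2 over library 1, 0.730 for Pdgfb, ranged from 0.465 to 1.01 over the 8 endothelial markers, with 4 below and 4 above that of Pdgfb. Over the 6 platelet and megakaryocyte markers it ranged from 0.448 to 2.15, with 3 on each side. The part of these cells in the Pdgfb difference was not tested.

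Markers of pericytes, which carry the beta receptor, split between the libraries. Of 8, 3 were higher in library 2, 2 in library 1 and 3 were not called, with a median difference of 0.05 and sums of 576 CPM in library 1 and 755 CPM in library 2. Cspg4, Notch3 and Mcam led with averages of 177, 134 and 128 CPM, and Higd1b was the lowest at 3.57 CPM. The fold of library 2 over library 1, 1.29 for Pdgfrb, ranged from 0.395 to 2.58 over the 8 pericyte markers, with 5 below and 3 above that of Pdgfrb. Of 5 smooth muscle markers measured, 2 were higher in library 2 and 3 had no call, at sums of 240 and 302 CPM. The part of mural cells in the Pdgfrb difference was not tested.

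Candidate carriers of Pdgfra differed in direction. General fibroblast markers were higher in library 1 in 6 of 7 cases and in library 2 in 1, Thy1, with a median difference of -0.97 and sums of 4345 and 2490 CPM. The collagen gene Col3a1 led at 2879 and 1467 CPM, and Lum, a small proteoglycan, had the lowest mean at 96.4 and 43.9 CPM. Pdgfra went the other way, and its fold of library 2 over library 1, 1.78, lay above those of all 7 fibroblast markers, which ranged from 0.248 to 1.22. Suture mesenchyme markers were higher in library 2 in 4 of 7 cases, in library 1 in 1 and not called in 2, with a median difference of 0.40 and sums of 275 and 349 CPM. Twist1, a mesenchymal transcription factor, was the marker higher in library 1 at 124 CPM against 72.8 CPM. Gli1, a Hedgehog target, stood at 32.0 and 64.4 CPM, and Six2, a suture progenitor gene, at 18.2 and 75.5 CPM. Msx2, a calvarial homeobox gene, was the lowest at 9.36 and 10.8 CPM. The fold over the 7 suture mesenchyme markers ranged from 0.588 to 4.15, with 4 below and 3 above that of Pdgfra. All 7 osteoblast markers were higher in library 2, with a median difference of 1.02, as were all 6 chondrocyte markers, with a median of 1.29. Meningeal markers were higher in library 2 in 3 of 6 cases with 3 not called, and had sums of 174 and 377 CPM.

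Oligodendrocyte precursors, a further cell type known for Pdgfra, had 2 of 6 markers higher in library 2 and 4 not called, with sums of 81.9 and 126 CPM. By mean CPM the list was led by the proteoglycan gene Cspg5 at 37.6 and 36.8 CPM, the glial transcription factor gene Sox10 at 10.9 and 44.7 CPM and the proteoglycan gene Bcan at 13.1 and 27.3 CPM. Sox10 and Bcan were the markers called. Sox10 also marks Schwann cells. Over the 5 markers averaging at least 1 CPM, the fold of library 2 over library 1 ranged from 0.701 to 4.09. Of these, 3 lay below and 2 above that of Pdgfra, at 1.78. Olig2, a transcription factor that defines the lineage, had no read in library 1 and was read at 0.190 CPM in library 2, at the limit of 0.190 CPM that a count of 0 allows there. The part of these cell types in the Pdgfra difference was not tested.

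**Figure D4:**
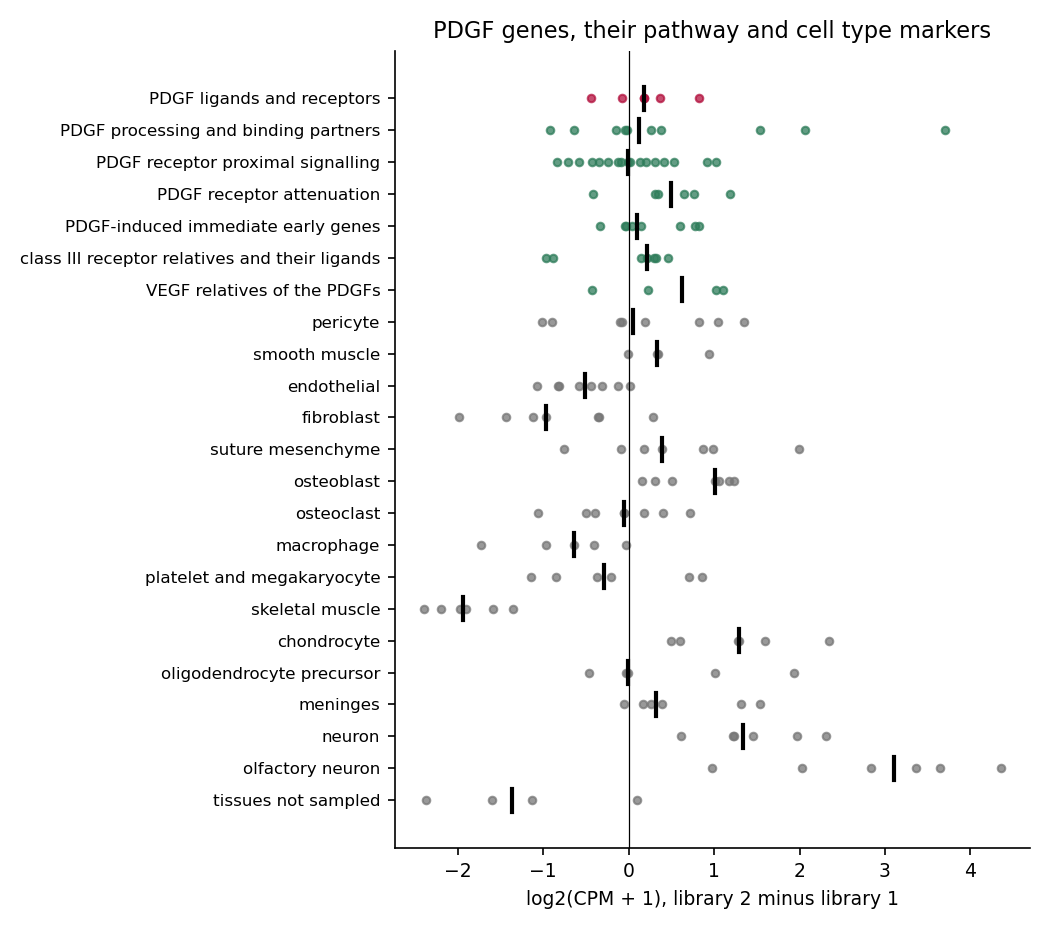
Difference between the libraries in log2(CPM + 1), library 2 minus library 1, for the 6 PDGF genes (red), genes of their pathway (green) and cell type markers (grey) that averaged at least 1 CPM, with each list's median as a black bar. The PDGF median lay at 0.18, between skeletal muscle markers at -1.94 and olfactory neuron markers at 3.10.

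The remaining marker lists differed as well. All 6 skeletal muscle markers were higher in library 1, and 4 of 6 macrophage markers were higher in library 1 with 2 not called. All 6 neuron markers were higher in library 2, with sums of 180 and 676 CPM. Of 8 genes of tissues not sampled, 2 reached 1 CPM in both libraries. Of the 8, 3 were called higher in library 1, none in library 2, and 5 were not called. The sums over all 8 were 15.7 and 4.68 CPM.

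With 2 libraries, likeness of pattern rests on 2 values per target and is a weak description. Over the 2 libraries, the targets closest to Pdgfra on the log2(CPM + 1) scale, among those averaging at least 10 CPM, were Htt, Agap3 and Rcan1, at distances of 0.0068, 0.017 and 0.025. For Pdgfrb they were Itpkb, Rpn2 and Gtf3c1, at distances of 0.016, 0.016 and 0.055. Within a distance of 0.1 lay 20 of 9191 targets for Pdgfra and 12 for Pdgfrb.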

How the data were processed

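Bulk RNA of cranial suture was analysed in 2 libraries of 1 group. Per the labels' protocols, an Ion AmpliSeq panel for the mouse transcriptome made the libraries. Per the submitters' processing notes, the build was mm10. No source used here gives the aligner, counting tool or filters. CPM per amplicon target, relative to the library total, was the unit the authors deposited. Every value above 0 was a whole number of reads within 0.01 of a read (100% in both libraries), which gave the reads tested. Symbols that read as dates (27) were restored from target names.

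Levels are CPM with the SD over both libraries, and differences use log2(CPM + 1). The exact two-sided binomial test (scipy 1.17.1), with Benjamini-Hochberg adjustment across 23930 targets and a threshold of 0.05, called 8863. It leaves no measure of variation between animals, and with 1 sample on each side no edgeR or limma fit had residual degrees of freedom. The test and the recovery of reads were tested on simulated data. Alternatives used scaling factors from edgeR 4.0.16 and DESeq2 1.42.0, filters, pseudocounts, thinning and each library alone.

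The members and gene lists were chosen with earlier results of these data known. Named genes were all 6 members, all genes of the processing and binding list, the 3 highest and the lowest of each other list (for some marker lists only counts and sums are printed), and the 3 nearest targets of each receptor. Of the listed genes, Acp1, Socs1, Tagln, Pi16, Prrx1 and Ifitm5 were not used here for want of a matching symbol, and the chondrocyte gene Cnmd was read as Lect1.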

Additional observations from a re-analysis of the deposited data

How the results depend on the processing

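Of 105 values recomputed under the alternatives, 1, a ratio given below, reversed its direction. Another 5, all levels, moved by more than the SD between libraries. No member's call changed its side of the threshold. Over all targets, 7323 were called with library 2 thinned, against 8863 in the main test. Part of the 105 values could not change by these rules. The value of 1 library always lies within the SD of 2 around their mean, and pseudocounts do not enter the test. The same number of PDGF members, 3, was called under TMM factors, median-ratio factors, totals without the 10 highest targets, filters at a mean of 1 or 10 CPM, and thinning of library 2. Levels rest on the share of reads taken by the most abundant targets. Without the 10 highest targets in the totals, which held 23.9% of library 1 and 25.4% of library 2, the level rose to 85.7 CPM for Pdgfa, 44.5 CPM for Pdgfb, 39.3 CPM for Pdgfc, 29.6 CPM for Pdgfd, 276 CPM for Pdgfrb and 87.0 CPM for Pdgfra, for all members by construction of the smaller totals. The log2 ratio of Pdgfa to Pdgfra, 0.04 over both libraries, ranged from -0.41 without library 1 to 0.50 without library 2, so its direction rests on the library. Pdgfra stayed between 0.77 and 0.88 on the log2 scale, Pdgfrb between 0.33 and 0.40 and Pdgfb between -0.48 and -0.39, with the highest adjusted p at 0.0113 for Pdgfb (exact binomial test). No paired analysis was possible because both libraries belong to 1 group. The fewest reads behind a member were 118, for Pdgfd in library 1.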
